A study of Mus musculus with 16 samples.

Results

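The passage 24 (P24) cultures of E14TG2a mouse embryonic stem (ES) cells were compared with the passage 23 (P23) cultures of the same line. They are 8 of the 16 arrays of the study, 4 from P24 and 4 from P23, and were chosen by the passage that the labels give, over all 24606 probes of the array. E14TG2a is an HPRT-deficient mouse ES line, grown here in serum with leukemia inhibitory factor (LIF) and split every second day. Before treatment the cells spent 6 hours in knockout serum replacement (KSR) medium without LIF, with 10 µM of SB-431542 (SB), an inhibitor of the Activin and Nodal receptors. Each passage then received 4 treatments for 18 hours, namely 25 ng/ml of Activin in KSR medium, 10 µM of SB in KSR medium, the vehicle DMSO diluted 1/5000 in KSR medium, and KSR medium alone. Every P24 culture therefore has a P23 culture under the same treatment, and passages 20 and 21 (P20 and P21) hold the same 4 treatments. Values below are given in that order of treatments.

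The 4 cultures of a passage came from the same passage of 1 line. The p-values between passages rest on the spread left among the cultures of all passages once passage and treatment are fitted. They therefore do not measure the spread between separate passages. The labels give no day of plating, medium lot, RNA extraction or chip for any array, and no second culture series. The passage therefore cannot be told apart from these. RNA came from whole cultures, so that fewer cells of a type and less RNA per cell cannot be told apart in any value below.

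Mouse ES cells in serum and LIF fluctuate between a naive state, marked by transcription factors such as Klf5, Tbx3 and Tfcp2l1, and a state closer to the post-implantation epiblast, marked by Otx2 and Fgf5. Like other cells they also carry acute programs that follow the culture conditions. In the integrated stress response, lack of amino acids or unfolded protein leads to translation of the transcription factor ATF4, which turns on genes of amino acid synthesis and stress adaptation. In low oxygen, hypoxia-inducible factors turn on genes of glycolysis, blood vessel growth and their own oxygen sensors. The actin cytoskeleton feeds back on its own genes through the serum response factor SRF and its partner MRTF.

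The arrays of both passages were of similar quality. Mean probe intensity ranged between 691 and 760 on the P24 arrays and between 667 and 721 on the P23 arrays, while 1 P21 array (KSR) was dimmer at 486. A probe was taken as above background when it exceeded the level below which 95% of the probes for olfactory, vomeronasal and taste receptors lay on that array, and 9816 to 10482 probes passed on each of the 16 arrays. Pou5f1, Nanog and Sox2, the defining transcription factors of ES cells, were above background on all 8 arrays. Of 13 measured fibroblast or feeder markers, 3 were above background on all 4 arrays of a passage, among them Acta2 and Twist1 but none of the collagens. No marker of blood, endothelium, trophoblast giant cells or neurons passed the test between passages.

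The passage was the main axis of variation among the 16 arrays. The first principal component, which carried 15% of the variance, placed the 4 P24 arrays between 13.5 and 14.5, the 4 P23 arrays between -1.6 and 2.5, the P21 arrays between -13.3 and -1.1 and the P20 arrays between -9.0 and -6.6. The second component carried 12.4% and followed treatment. P24 stood alone at one end of the first component, with no array of another passage near it. The genes with the strongest weights toward P24 were Dab2, Srgn, Foxq1 and Pga5, followed by Nupr1, Vldlr, Clic6 and Chac1, of which Nupr1, Vldlr and Chac1 are stress genes. Those with weights away from it included S100a6, a calcium-binding protein, and Acta2, smooth muscle actin, both on the SRF and MRTF list. Dab2 and Gata6 separated P24 and P23 together from P21 and P20, and are described with the primitive endoderm. Other genes with strong weights also differed little between P24 and P23, Foxq1 by 0.27, Amn by 0.18, Col4a2 by -0.14 and Col4a1 by 0.00. Pga5 and Srgn differed by 0.84 and 0.52. The first component therefore does not show the P24 minus P23 difference alone.

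**Figure D1:**
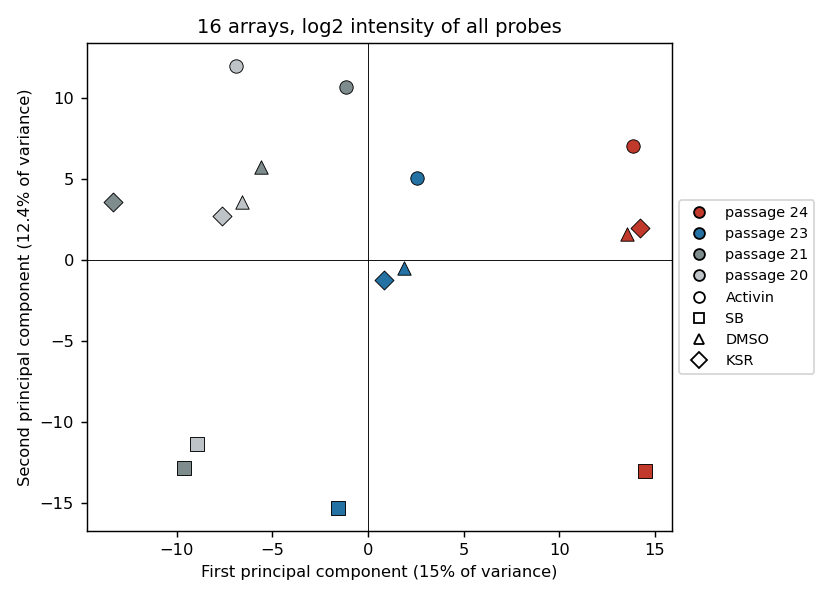
First and second principal components of the 16 arrays, in component scores, with color for passage and symbol for treatment. The 4 P24 arrays lie between 13.5 and 14.5 on the first component, and no other array exceeds 2.5.

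How many probes set P24 apart was tested with limma, in a model with passage and treatment over all 16 arrays. Between P24 and P23, 703 of 24606 probes passed an adjusted p of 0.05 (2.86% of probes), with 390 higher (1.58%) and 313 lower in P24 (1.27%). These 703 probes held 588 named genes. The changes were mostly modest, since 40 of the called probes differed by over 1.5-fold and 4 by over 2-fold. Of the 703, 699 moved the same way in all 4 treatment pairs, and in 618 the P24 and P23 arrays did not overlap. The test itself favors such probes, so these counts describe the called probes and are no separate evidence of regularity. With 1 probe per gene, 273 of 15964 genes were higher (1.71%) and 228 were lower (1.43%), and the median gene differed by -0.0046 on the log2 scale. Scaling the arrays on their medians instead gave 575 higher and 108 lower probes, so that the balance between rises and falls rests on the normalization.

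Against the earlier passages P21 and P20 the P24 arrays differed by more probes still, with 904 called between P24 and P21 (3.67%) and 1080 between P24 and P20 (4.39%). P23 differed from P21 by 660 probes (2.68%) and from P20 by 174 (0.707%). These comparisons share arrays and are given side by side only. In 444 probes the 4 P24 arrays all lay above or all lay below the other 12 (1.8%), against 174 such probes for P23, 188 for P21 and 133 for P20. Of the 390 probes that rose in P24, 252 had a mean over P20 and P21 nearer to P23 than to P24, and so did 226 of the 313 that fell. In most of the called probes the earlier passages thus lay on the side of P23, while in a minority P23 was the passage farther from them. The same share over all probes was not computed, so these counts only describe the called probes.

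The integrated stress response held the largest rises. Of 34 measured genes of this list, 13 rose in P24 and none fell, and the median of the list was 0.26 on the log2 scale, beside -0.0046 over all genes and a background of 1.71% of genes called higher. In 13 of the 34 members the 4 P24 arrays lay above all other 12 arrays, beside 0.992% of all probes, so that these genes were high in P24 against every earlier passage. They were Atf4 and the called members other than Sesn3.

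Vldlr, a lipoprotein receptor that ATF4 is known to induce, rose most. Its log2 intensities were 8.49, 8.80, 8.82 and 8.66 in P24, against 7.39, 7.70, 7.50 and 7.46 in P23. The P24 arrays all exceeded the P23 arrays, by 2.27-fold on average (log2 difference 1.18, SE 0.10, adjusted p = 2.91e-06), and its 3 other probes were below background. Nupr1, a small stress-induced chromatin protein, had 10.48, 10.78, 10.85 and 11.01 in P24, against 9.49, 9.78, 9.71 and 9.73 in P23 (2.14-fold, SE 0.13 on the log2 scale, adjusted p = 6.08e-05). Ddit4, an inhibitor of the growth regulator mTORC1 and a target of both ATF4 and the hypoxia-inducible factors, had 8.90, 9.11, 9.25 and 9.49 in P24, against 7.92, 8.50, 7.86 and 8.22 in P23 (2.08-fold, SE 0.11, adjusted p = 2.68e-05). In all of these genes the lowest P24 array lay above the highest P23 array.

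Stc2, a secreted glycoprotein of the stanniocalcin family, gave the smallest p-value of the comparison. Its log2 intensities were 8.45, 8.38, 8.62 and 8.55 in P24, against 7.51, 7.55, 7.66 and 7.67 in P23 (1.87-fold, SE 0.07, adjusted p = 1.93e-06). Chac1, which breaks down glutathione, had 12.06, 12.40, 12.11 and 12.28 in P24, against 11.26, 11.39, 11.47 and 11.30 in P23 (1.81-fold, SE 0.09, adjusted p = 2.68e-05). Psat1, an enzyme of serine synthesis, had 13.16, 13.32, 13.30 and 13.36 in P24, against 12.53, 12.53, 12.69 and 12.69 in P23 (1.6-fold, SE 0.08, adjusted p = 0.000138). The spread within a passage was small beside the gap between passages in each of them, and a second Psat1 probe also rose, by 0.59 on the log2 scale (adjusted p = 0.00104).

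The other called members were of the same kind. Jdp2, a repressor of the AP-1 family, rose by 0.59 and Gpt2, a mitochondrial alanine aminotransferase, by 0.54 on the log2 scale. Cebpb, Trib3 and Cth, named here after their values were seen, rose by 0.53, 0.51 and 0.49, and encode a transcription factor that pairs with ATF4, a pseudokinase that restrains it and an enzyme of cysteine synthesis. Asns, which makes asparagine and is a standard ATF4 target, rose by 0.35 on its brighter probe (adjusted p = 0.0127) and by 0.52 on the other (adjusted p = 0.00423). Sesn3, a sestrin that dampens mTORC1, rose by 0.35 but was above background on all 4 P24 arrays and on 2 of the P23 arrays.

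Other parts of the same program did not pass. Atf4 itself differed by 0.25 on its brighter probe (adjusted p = 0.0675), while a second probe passed with 0.41 (adjusted p = 0.0201). Ddit3, the proapoptotic factor CHOP, differed by 0.38 (adjusted p = 0.11), Phgdh, which opens the serine pathway, by 0.23 (adjusted p = 0.166), and Atf3 by 0.16 with neither passage above background. Mthfd2, Slc7a5, Psph and Pck2 had adjusted p-values above 0.3 in the same test. The response was therefore uneven across its members, with 31 of the 34 on the positive side. Averaged per array over the 23 members above background, the log2 level ranged between 10.20 and 10.30 in P24 and between 9.71 and 9.90 in P23, with 9.47 to 9.62 in P21 and 9.84 to 9.92 in P20. P21 was the lowest and P24 the highest, while P23 and P20 overlapped.

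**Figure D2:**
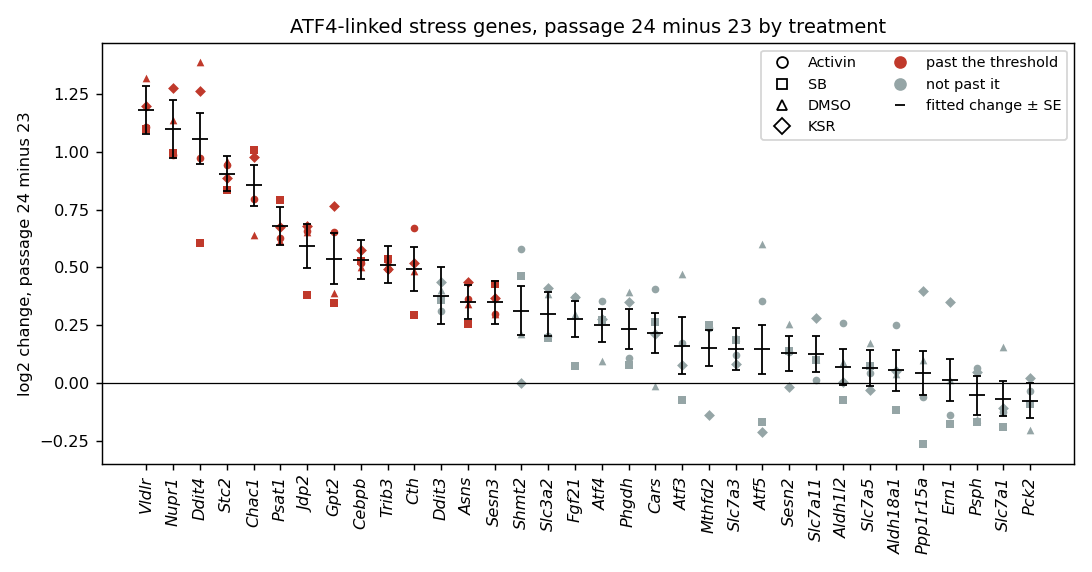
Log2 difference, P24 minus P23, for the 34 measured members of the integrated stress response list, with a symbol for each treatment pair and a bar for the fitted difference and its standard error. All treatment pairs of the 13 members that passed the test, in red, lie above 0, led by Vldlr (1.18), Nupr1 (1.10) and Ddit4 (1.06).

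ATF4 and its C/EBP partners are known to bind a composite element whose core reads TGATGNAA, and the promoters of the members were read for it. The windows were taken from RefSeq (GRCm38.p6) and run from 250 bases before to 50 bases after each start. On either strand the core stood in 3.97% of all 32851 windows and in at least 1 window of 4.51% of 27025 genes. Of the 13 members that rose 12 had a window, and 6 of these held it, in Asns, Trib3, Chac1, Vldlr, Nupr1 and Jdp2. Of the members that did not pass, 4 of 17 held it. A match is a description of the letters and not of binding, which was not measured here. Shown are the windows of Chac1 (chr2:119350992-119351291, plus strand), Nupr1 (chr7:126625421-126625720, minus strand), the second window of Vldlr (chr19:27216770-27217069, plus strand) and Asns (chr6:7693160-7693459, minus strand), 5′ to 3′ along each gene, with the core in capitals. It begins 193, 110, 200 and 23 bases before the start in these 4 genes, and in the first 3 it reads as the reverse complement, with the same 8 letters.
Chac1: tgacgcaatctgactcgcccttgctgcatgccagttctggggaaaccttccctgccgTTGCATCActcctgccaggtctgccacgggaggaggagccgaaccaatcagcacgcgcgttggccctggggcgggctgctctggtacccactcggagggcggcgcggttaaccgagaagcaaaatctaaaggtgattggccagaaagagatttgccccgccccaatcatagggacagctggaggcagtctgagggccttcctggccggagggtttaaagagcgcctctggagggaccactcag
Nupr1: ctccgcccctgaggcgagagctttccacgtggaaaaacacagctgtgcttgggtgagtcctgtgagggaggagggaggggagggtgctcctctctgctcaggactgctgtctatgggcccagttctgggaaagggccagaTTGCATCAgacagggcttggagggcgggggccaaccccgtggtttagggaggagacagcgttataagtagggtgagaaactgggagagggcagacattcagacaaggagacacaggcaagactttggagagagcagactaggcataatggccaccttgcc
Vldlr: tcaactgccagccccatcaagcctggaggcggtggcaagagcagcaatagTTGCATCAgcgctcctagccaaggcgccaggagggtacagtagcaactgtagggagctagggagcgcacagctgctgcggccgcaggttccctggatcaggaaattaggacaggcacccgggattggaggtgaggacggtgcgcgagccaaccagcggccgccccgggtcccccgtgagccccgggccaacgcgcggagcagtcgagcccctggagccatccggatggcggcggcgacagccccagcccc
Asns: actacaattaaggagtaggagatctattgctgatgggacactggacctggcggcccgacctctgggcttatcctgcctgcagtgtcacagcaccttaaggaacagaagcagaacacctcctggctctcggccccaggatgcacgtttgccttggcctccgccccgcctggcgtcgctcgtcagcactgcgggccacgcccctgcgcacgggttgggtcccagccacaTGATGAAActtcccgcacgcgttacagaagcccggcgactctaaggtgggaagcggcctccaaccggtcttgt

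Neighboring stress programs gave fewer calls, to be read beside 1.71% of all genes called higher and 1.43% called lower. In the unfolded protein response of the endoplasmic reticulum, 3 of 22 measured genes rose and none fell, with a median of 0.05. Hspa5, the main chaperone of the reticulum, had log2 intensities of 10.75, 10.77, 10.55 and 10.72 in P24, against 10.12, 10.12, 10.30 and 10.44 in P23 (1.37-fold, SE 0.09, adjusted p = 0.00616). Herpud1, a membrane protein of reticulum-associated degradation, rose by 0.41 and the chaperone Hsp90b1 by 0.37. Hspa5 averaged 10.70 in P24 and 10.24 in P23, but also 10.77 in P21 and 10.30 in P20, so that P24 did not stand alone for it. Of 19 amino acid transporters 2 rose (Slc1a5, which carries glutamine, by 0.42 and the glycine carrier Slc6a9 by 0.38), of 14 aminoacyl-tRNA synthetases Nars and Sars rose and Vars fell, of 23 p53 targets 1 rose, and of 22 targets of the oxidative stress factor NRF2 none passed.

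Hypoxia genes were also among the rises. Of 26 measured genes, 6 rose and none fell, beside 1.71% of all genes called higher. The median was 0.23 on the log2 scale and 23 members were on the positive side, beside 48.4% of all genes, and the list shared only Ddit4 with the stress list. Egln3, an oxygen-sensing prolyl hydroxylase that hypoxia-inducible factors induce, had 8.83, 8.16, 9.07 and 8.79 in P24, against 8.11, 7.71, 7.89 and 8.17 in P23. It rose 1.67-fold (SE 0.11 on the log2 scale, adjusted p = 0.000899), although its SB array in P24 lay below the KSR array in P23 and the groups overlapped. Ankrd37 rose by 0.55, Vegfa, the main vascular growth factor, by 0.42, Pfkfb3, an activator of glycolysis, by 0.39, and P4ha1, a collagen prolyl hydroxylase, by 0.33 on the log2 scale. Ankrd37 is a nuclear target of the hypoxia-inducible factors. Vegfa had 9.70, 10.32, 10.10 and 9.87 in P24, against 9.34, 9.69, 9.72 and 9.56 in P23, so that it was higher in each pair although the groups overlapped. Car9 and Bnip3, both standard markers of low oxygen, differed by -0.10 and 0.12 and did not pass (adjusted p = 0.599 and 0.614), with Bnip3 below background in both passages. The list was less stable than the stress list, since only Ddit4 and Egln3 passed whichever of the 8 arrays was left out, and 2 of the 6 calls were left without the KSR array of P24 or the Activin array of P23.

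The averaged level of 16 hypoxia genes ranged between 9.20 and 9.33 in P24 and between 8.91 and 9.03 in P23, with 8.88 to 9.08 in P21 and 8.91 to 8.97 in P20. Here P24 stood above all 3 other passages, which overlapped one another. The core of the hypoxia response element, ACGTG, also forms part of the E-box CACGTG and is common, and on either strand it stood in 19.6% of all windows and in 21.8% of genes. It stood in the windows of all 6 members that rose and in 11 of 15 that did not pass, so that members of the list carried it whether or not they moved. Egln3 (chr12:54203825-54204124, minus strand) is shown, with the core in capitals 229 bases before the start.
Egln3: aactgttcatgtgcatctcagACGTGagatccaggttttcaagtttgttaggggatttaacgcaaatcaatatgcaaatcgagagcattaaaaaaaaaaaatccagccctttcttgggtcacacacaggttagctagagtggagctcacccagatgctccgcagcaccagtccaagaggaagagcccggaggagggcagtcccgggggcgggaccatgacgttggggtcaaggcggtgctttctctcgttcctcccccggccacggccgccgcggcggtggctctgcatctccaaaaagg

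Glycolysis gave fewer calls. Of 17 enzymes and transporters 2 rose and none fell, with a median of 0.13, beside 1.71% of all genes called higher. The median of 14 reference genes was 0.09, so that the shift of the glycolysis list is not read as change here. Tpi1, triosephosphate isomerase, had log2 intensities of 12.26, 12.27, 12.65 and 12.37 in P24, against 11.90, 11.78, 11.86 and 11.83 in P23. It rose by 0.54 (adjusted p = 0.00151), the P24 arrays lay above the P23 arrays, and a second probe rose by 0.40 (adjusted p = 0.0326). Ldha, which turns pyruvate to lactate, rose by 0.30 (adjusted p = 0.0376) but was called in only 1 of the 8 fits without 1 array. Gapdh, Pkm and Hk2 differed by 0.07, 0.11 and -0.10 and did not pass.

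**Figure D3:**
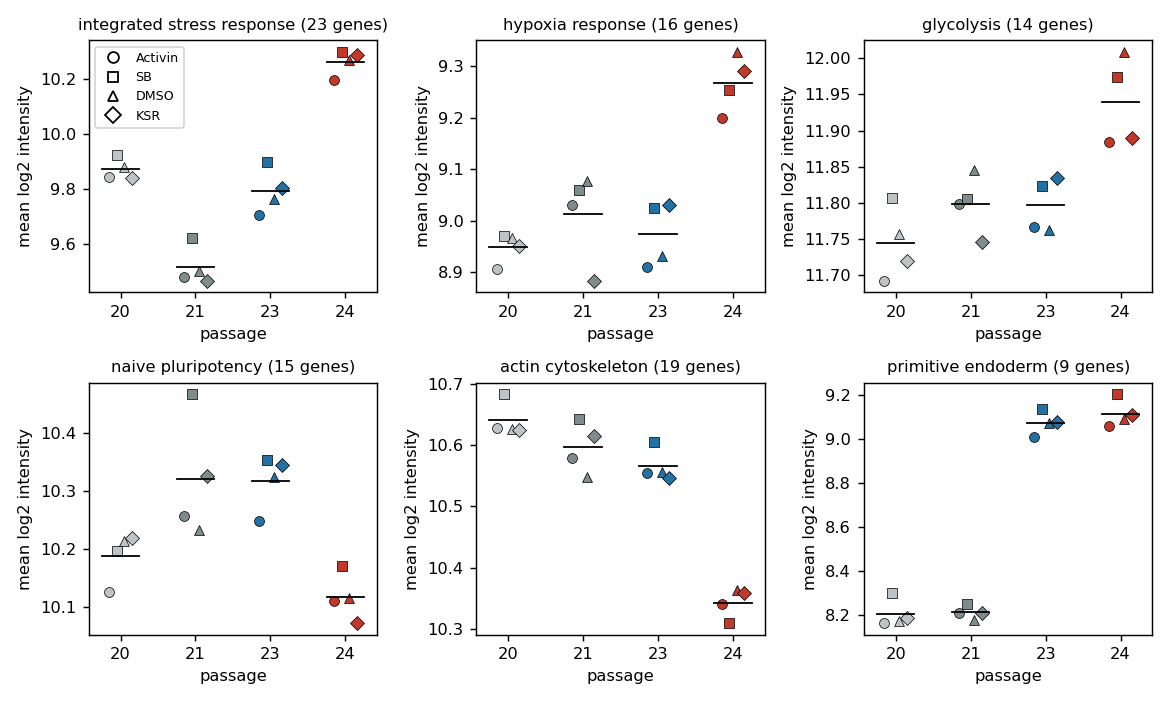
Mean log2 intensity on each of the 16 arrays over the members above background of 6 gene lists, by passage, with a symbol for each treatment and a line at the mean of each passage (axes do not start at 0). P24 lies above the other passages for the stress, hypoxia and glycolysis lists and below them for the actin list, while P24 and P23 lie together above P21 and P20 for primitive endoderm. The glycolysis median, 0.13 for P24 minus P23, is near the 0.09 of 14 reference genes.

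Genes of the naive state were lower in P24 on balance. Of 16 measured genes 6 fell and 1 rose, with a median of -0.19 on the log2 scale, beside a background of 1.43% of genes called lower. Tcea3, an elongation factor of ES cells, had 11.55, 11.65, 11.79 and 11.57 in P24, against 12.17, 12.35, 12.22 and 12.18 in P23 (log2 difference -0.59, SE 0.07, adjusted p = 0.000167). Tbx3, a T-box factor that sustains self-renewal, had 9.18, 8.86, 9.00 and 9.09 in P24, against 9.71, 9.52, 9.58 and 9.53 in P23 (-0.55, SE 0.08, adjusted p = 0.000682). Klf5, a Krüppel-like factor, had 10.72, 10.50, 10.52 and 10.48 in P24, against 11.07, 10.92, 11.03 and 11.08 in P23 (-0.47, SE 0.08, adjusted p = 0.00239). None of these 3 genes had a P24 array above its lowest P23 array.

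Stat3, the factor that carries the LIF signal, differed by -0.39 and by -0.44 on a second probe (adjusted p = 0.0326 and 0.00554). The orphan receptor Nr5a2 differed by -0.35 and Tfcp2l1 by -0.34. Klf4, at the center of the same network, differed by -0.17 on its brightest probe (adjusted p = 0.478) but fell on another probe above background, with -0.37 (adjusted p = 0.0379), and Esrrb differed by -0.20 and did not pass (adjusted p = 0.25). Zfp42, also known as Rex1, went the other way and rose by 0.38 (adjusted p = 0.0369). The list thus split, and no probe of the core factors Pou5f1, Nanog and Sox2 passed. Their brightest probes differed by 0.13, 0.18 and 0.30, but 2 other probes of Nanog differed by -0.13 and -0.26 and a second probe of Sox2 by -0.22, and these probes gave no common sign. On the core list 2 of 13 genes rose, Zfp42 and Tdgf1, beside 1.71% of all genes called higher and 1.43% called lower. Of 14 LIF and STAT3 targets 3 fell and none rose, of which Stat3 and Tfcp2l1 are also on the naive list and Socs3, the feedback inhibitor of the pathway, differed by -0.33.

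The level of the naive genes did not order the passages by age. Averaged per array over 15 genes it ranged between 10.07 and 10.17 in P24 and between 10.25 and 10.36 in P23, with 10.23 to 10.47 in P21 and 10.13 to 10.22 in P20, so that P24 overlapped P20. Stat3 in particular had a mean of 9.08 in P24, 9.47 in P23, 9.21 in P21 and 9.05 in P20, and P23 was its highest passage. Tcea3, Tbx3 and Klf5 passed whichever of the 8 arrays was left out, while 3 of the 7 calls were left without the SB, DMSO or KSR array of P24. With median scaling 3 of the 6 falls were left, those of Tfcp2l1, Nr5a2 and Stat3 being lost, and the median of the list was -0.097.

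Markers of the post-implantation epiblast showed 3 rises among 15 measured genes and no fall, beside 1.71% of all genes called higher. Their median of 0.10 was close to that of 14 reference genes (0.09), and a difference of that size cannot be read as change here. Otx2, a homeobox factor that directs cells toward the epiblast state, had 11.02, 10.97, 10.99 and 11.13 in P24, against 10.62, 10.33, 10.59 and 10.64 in P23 (log2 difference 0.49, adjusted p = 0.00506). Fgf5 rose by 0.38 (adjusted p = 0.0245) but was above background on only 2 of the P23 arrays. Otx2 was the only call left without the DMSO array of P24 or of P23. Fgf15 rose by 0.47, and Dnmt3b, Lef1 and Pou3f1 had positive differences of 0.32, 0.36 and 0.21 that did not pass. The averages of P24 lay above those of P23 for 8 genes, at 10.50 to 10.58 against 10.23 to 10.47, but reached into the range of P21.

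Activin and Nodal targets allowed the passage to be read beside the treatment itself. Of 16 measured targets 4 rose in P24 and none fell, beside 1.71% of all genes called higher. The median was 0.00, or -0.14 over the 7 above background. None of the 4 passed with the authors' normalized values or with a floor of 16 in place of normexp, and 2 did without the DMSO array of P24 or of P23. Lefty2, a secreted Nodal inhibitor that Nodal induces, had 12.08, 6.50, 10.41 and 10.27 in P24, against 11.50, 6.26, 9.75 and 9.54 in P23 (0.55, adjusted p = 0.00575). Lefty1 had 13.54, 6.84, 12.07 and 11.99 in P24, against 13.01, 6.73, 11.49 and 11.50 in P23 (0.43, adjusted p = 0.0197). In both passages the Activin array was the highest and the SB array was at background, and each P24 array exceeded its P23 counterpart. Tdgf1, the Nodal co-receptor Cripto, rose by 0.52, and its second probe was below background on all 8 arrays. Nodal itself, Pmepa1 and Smad7 differed by -0.14, -0.15 and 0.00 and did not pass. P23 was the lowest passage for Lefty1 with a mean of 10.68, against 11.11 in P24, 11.40 in P21 and 11.09 in P20, so that its rise from P23 returned it to the range of the earlier passages.

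Falls included genes of the cytoskeleton, S100a6 being the largest fall of all. Of 25 measured genes of the SRF and MRTF list 4 fell and none rose, beside 1.43% of all genes called lower, with a median of -0.17. In 8 of the 25 the 4 P24 arrays lay below all other 12, beside 0.813% of all probes. S100a6, a calcium-binding protein of proliferating and spreading cells, had 9.58, 9.71, 9.87 and 9.93 in P24, against 10.45, 10.90, 10.62 and 10.62 in P23. It was 1.83-fold lower (log2 difference -0.87, SE 0.09, adjusted p = 2.68e-05). Acta2, smooth muscle actin, had 8.43, 8.53, 8.65 and 8.72 in P24, against 9.40, 9.48, 9.28 and 9.40 in P23 (-0.81, SE 0.09, adjusted p = 2.68e-05). The P24 and P23 arrays were well apart for both genes, which were higher again in P20, at 11.09 to 11.21 for S100a6 and 9.87 to 10.19 for Acta2.

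Zyx, a focal adhesion protein, differed by -0.37 (adjusted p = 0.0264), and Anxa2, an annexin, by -0.30 (adjusted p = 0.0494). The probes of Actb disagreed, with -0.25 on the brightest (adjusted p = 0.0511), -0.28 on the second (adjusted p = 0.0367) and 0.17 on the third (adjusted p = 0.345). Vim, Myh9 and Flna had differences of -0.23, -0.24 and -0.29 that did not pass. Vcl, Lmna and Tpm3 lay within 0.05 of 0. Tagln and Cnn1, markers of differentiated smooth muscle, were below background in both passages. Lasp1 and Tns1, actin-binding proteins outside the list, were among the 20 largest falls, with -0.56 and -0.57, and 2 other Lasp1 probes also fell. The averages over 19 genes ranged between 10.31 and 10.36 in P24 and between 10.55 and 10.61 in P23, with 10.55 to 10.64 in P21 and 10.63 to 10.68 in P20. P24 was lowest, and the other passages lay close together. S100a6 and Acta2 passed whichever of the 8 arrays was left out, while Zyx and Anxa2 were both lost without the SB or KSR array of P24 or the SB or DMSO array of P23, and with median scaling. Acta2 is also counted among fibroblast markers, of which it and Col1a1 fell (2 of 13, beside 1.43% of all genes). Col1a1, Col1a2, Col3a1, Dcn and Lum were below background in both passages.

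**Figure D4:**
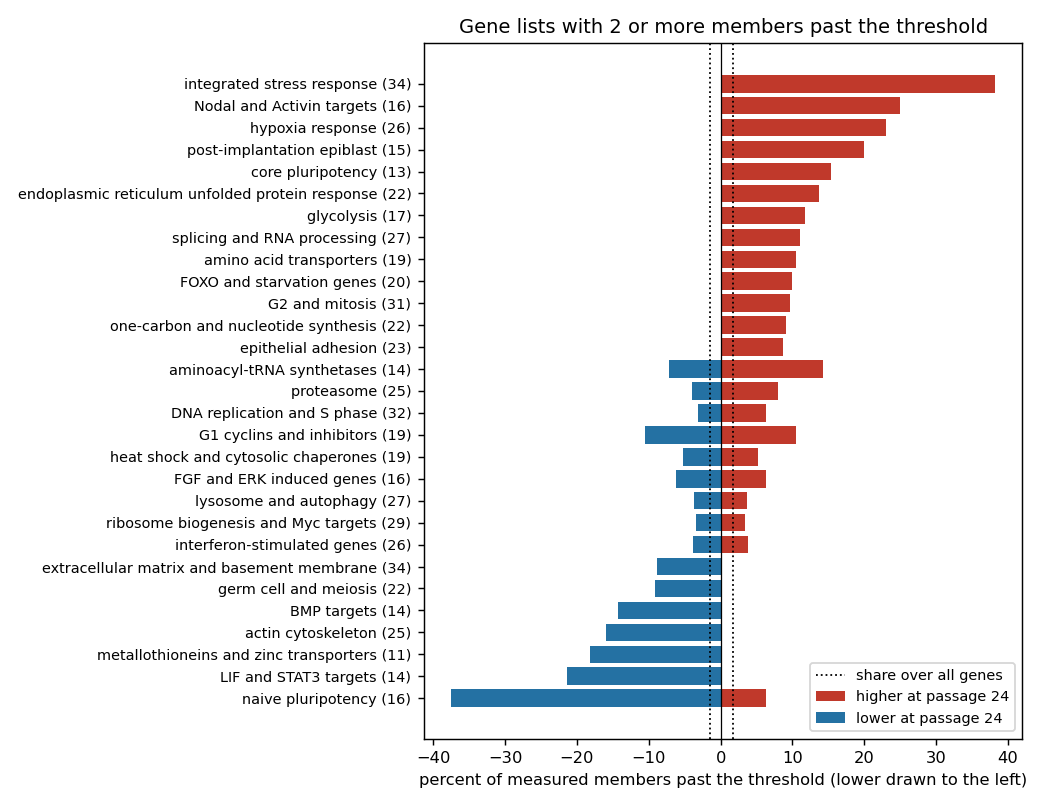
Percent of the measured members of each gene list (number in brackets) that were higher in P24 than in P23, to the right, or lower, to the left, at an adjusted p of 0.05, for lists with 2 or more such members. Dotted lines mark the share over all genes, 1.71% higher and 1.43% lower, and the integrated stress response and naive pluripotency lists reach farthest on either side.

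The 20 largest rises held several genes outside these lists. Ifrd1, a transcriptional coregulator induced by stress, rose by 0.73 on the log2 scale. Serpinf1, a secreted serpin, and Vdac3, a channel of the outer mitochondrial membrane, each rose by 0.66, and Ccng2, an unusual cyclin of cell cycle arrest, and Rhob, a small GTPase, each by 0.61. Pcna, the sliding clamp of DNA replication, had 11.54, 11.77, 11.44 and 11.76 in P24, against 11.09, 10.89, 11.05 and 11.12 in P23 (0.59, adjusted p = 0.00303), and Smc4, a condensin subunit, rose by 0.58. These cell cycle genes moved singly, since Ccnd2 rose by 0.41 while Ccnd3 differed by -0.53. Of 32 genes of DNA replication 2 rose and 1 fell, and of 31 mitotic genes 3 rose. Over all genes 1.71% were called higher and 1.43% lower. Aire and Hhip were above background on no P23 array and on all 4 P24 arrays, and rose at least 1.46-fold and at least 1.19-fold, against the lowest level above background. The remaining rises were Zfp960, a zinc finger protein, Tprgl, Morf4l1b and a dim probe of the ribosomal protein gene Rpl4, at 0.97, 0.60, 0.59 and 0.58. A brighter probe of Tprgl differed by 0.21 and did not pass (adjusted p = 0.174). Of the 20 rises, 13 had all P24 arrays above the other 12, beside 0.992% of all probes. The choice of these genes already required P24 to lie above every P23 array, so the count and that share cannot be compared directly.

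**Figure D5:**
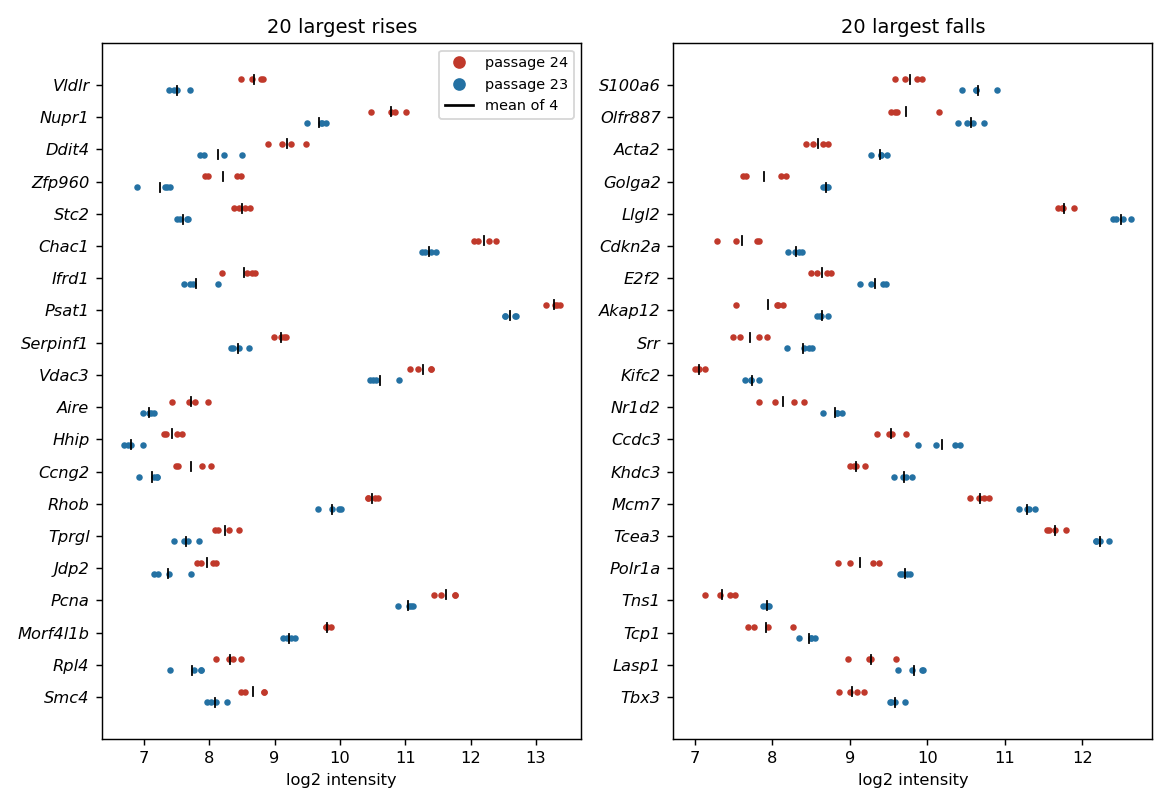
Log2 intensity on each P24 array (red) and P23 array (blue) for the 20 largest rises and the 20 largest falls, with a tick at the mean of 4. In every gene shown the arrays of the passages do not overlap, which the choice of these genes required, and the differences of the means are largest for Vldlr, Nupr1 and Ddit4 among the rises and S100a6 among the falls.

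Among the falls, Llgl2, a protein of epithelial polarity, had 11.89, 11.68, 11.75 and 11.74 in P24, against 12.40, 12.62, 12.43 and 12.52 in P23 (log2 difference -0.73, SE 0.08, adjusted p = 2.68e-05). Cdkn2a, which encodes the cell cycle inhibitors p16Ink4a and p19Arf, had 7.53, 7.29, 7.83 and 7.80 in P24, against 8.29, 8.38, 8.34 and 8.20 in P23 (-0.69, adjusted p = 0.00171). E2f2, a transcription factor of the cell cycle, also differed by -0.69, and its second probe was below background on all 8 arrays. Khdc3, an oocyte and embryo factor, differed by -0.61. Igf2, the imprinted growth factor, had 9.55, 10.46, 9.76 and 9.83 in P24, against 10.18, 10.82, 10.42 and 10.36 in P23 (-0.55, adjusted p = 0.000734). It was the only called gene among 23 imprinted genes measured, and its SB array was the highest in both passages. Kifc2 was above background on all 4 P23 arrays and on no P24 array, and was at least 1.51-fold lower. Ccdc3 and the receptor gene Olfr887 differed by -0.66 and -0.84. Of the 20 falls, 6 had all P24 arrays below the other 12, beside 0.813% of all probes. Here too the choice already required P24 to lie below every P23 array.

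Several of the largest falls rested on 1 probe of a gene that has another. The brighter probe of Mcm7 averaged 12.67 in P24 and 12.66 in P23, that of Akap12 12.27 and 12.31, that of Tcp1 14.13 and 13.96, and that of Polr1a 11.90 and 11.96. Nr1d2 fell on 1 probe and its other was below background on all 8 arrays. The other probe of Srr differed by 0.00, while Golga2 fell by 0.80 and by 0.34 on a second probe. For Mcm7, Akap12, Tcp1 and Polr1a the fall applies to the dimmer probe and not to the gene as a whole. Over all called genes with another probe above background, that probe had the same sign in 37 of 46 genes that rose and in 29 of 35 that fell, and none was called in the opposite direction.

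Primitive endoderm genes separated the passages in another way. Dab2, an endocytic adaptor of this lineage, had 10.44, 10.83, 10.58 and 10.55 in P24, against 10.27, 10.37, 10.25 and 10.33 in P23, where it was already far above P21 (8.03 to 8.23) and P20 (8.06 to 8.43). It was 0.29 higher in P24 than in P23 (adjusted p = 0.0385), a call that was lost in 17 of 24 alternatives, each omission of 1 of the 8 arrays included. Gata6, the lineage-defining factor, averaged 8.32 in P24, 8.30 in P23, 7.02 in P21 and 7.16 in P20, and did not differ between P24 and P23 beyond its spread. Over 9 genes of the list the averages ranged between 9.06 and 9.20 in P24 and between 9.01 and 9.14 in P23, with 8.18 to 8.25 in P21 and 8.16 to 8.30 in P20. These genes add to the first component of the 16 arrays, but 1 of 18 was called between P24 and P23, beside 3.14% of all genes.

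Other programs gave few calls, to be read beside 1.71% of all genes called higher and 1.43% called lower. None of 19 immediate early genes passed in limma, and neither did any of 14 reference genes, 12 Wnt targets, 18 polycomb and histone modifiers or 13 genes of DNA methylation. Of 14 BMP targets 2 fell (Bmp4 and Tbx3), of 34 extracellular matrix genes 3 fell (Hspg2, Nid1 and Col1a1), of 25 proteasome genes 2 rose and 1 fell, of 20 ribosomal protein genes 1 rose, and of 27 genes of the respiratory chain 1 rose. Splicing genes had 3 rises among 27 and a median of 0.12. The reference genes, such as those commonly used to normalize PCR, had a median of 0.09, and differences of that size cannot be read as change here. By chromosome, leaving out Y, the medians ranged between -0.02 on chromosome 19 and 0.01 on X. On X 20 genes of 551 were called higher (3.63%), and on chromosome 12 a similar share, 15 of 463 (3.24%), beside 1.71% of all genes.

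The difference between passages was tested for its dependence on treatment. For each treatment the P24 minus P23 difference was set against that of the others in limma. Each test rests on 1 pair of arrays for its treatment, with 7 residual degrees of freedom, and can miss departures. An unadjusted p under 0.05 was found for 754 probes (3.06%) for Activin, 1022 (4.15%) for SB, 957 (3.89%) for DMSO and 969 (3.94%) for KSR. After adjustment no probe passed for Activin, SB or DMSO, and 1 passed for KSR. That probe, of the proteasome subunit Psmc1, read 5.89 on the KSR array of P24, against 10.29 on the KSR array of P23, while the other 6 arrays of both passages read 10.11 to 10.68. Apart from it, the shift of P24 was not shown to differ between the treatments.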

How the data were processed

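Total RNA of each culture (RIN above 9 per the labels) was amplified and hybridized to Illumina MouseRef-8 v2.0 BeadChips, 1 array per culture. The authors subtracted each array's background in BeadStudio (version not given in the sources used here) and deposited the probe intensities without normalization between arrays, which are the values used here. They also deposited intensities normalized by cross-correlation with a floor of 40, used only as an alternative. Neither table has detection p-values, so background was set from 1191 probes of olfactory, vomeronasal and taste receptors. The number of arrays limits the precision.

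Intensities were corrected by normexp (offset 50), quantile normalized and taken to log2 with limma 3.58.1 in R 4.3.3. The model held passage and treatment over 16 arrays (9 residual degrees of freedom), so that treatment is the block that pairs P24 with P23. P-values are two-sided and Benjamini-Hochberg adjusted over 24606 probes. The offset compresses differences of dim probes. Where a passage was above background on no array, the fold change is a lower bound. A gene in a list stood as its probe with the highest mean. Probe names came from the platform annotation, 20980 probes having 1 symbol, 1 several and 3625 none. On simulated intensities for this comparison (24606 probes), 83% of 100 changes of 0.5 and 100% of 100 changes of 1 on the log2 scale were recovered, with 5 false among 188 calls.

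Members and lists were chosen with earlier results of these data known. Genes are named if among the 20 largest rises or falls with all pairs the same way and no overlap between passages, if among up to 8 called members or the first 3 of a list, or if an array stood apart; others named are examples chosen after their values were seen. Promoter windows were those of RefSeq. Alternatives changed the normalization, background correction, filter, samples, block and estimate of spread, and left out arrays.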

Additional observations from a re-analysis of the deposited data

Results flagged for a closer look

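Among the 20 largest rises and 20 largest falls, 80 groups of 4 arrays were examined for an array apart from the rest, and 3 were found. The limit used flags about 1 in 20 groups of replicate arrays by chance. Here each group held 1 array of each treatment, and the genes were chosen for passages that do not overlap. That rate therefore does not apply, and all 3 arrays found were SB arrays. The SB array of P23 read 6.891 for Zfp960, where the nearest of the other 3 read 7.324. The SB array of P24 read 10.15 for Olfr887, where the nearest read 9.613, and 7.53 for Akap12, where the nearest read 8.06.

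The P24 minus P23 difference of Psmc1, a subunit of the proteasome cap, departed from the other treatments by -4.589 under KSR on the log2 scale (limma, adjusted p = 0.000316), since its KSR array of P24 read 5.89. Over all treatments its difference of -0.96 did not pass (adjusted p = 0.484).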

How the results depend on the processing

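Of 703 probes between P24 and P23 (390 higher, 313 lower), the count ranged from 848 with cyclic loess (699 of the 703 kept) and 677 in the 8 arrays alone to 554 with no treatment block, each within 1.5 times. Median scaling gave 683, of which 575 were higher and 108 lower. An offset of 16 gave 189 (113 higher, 76 lower), a floor of 16 without normexp 406 (194 higher, 212 lower), and the authors' normalized values 428 (213 higher, 215 lower), so that higher calls no longer outnumbered lower ones in these last settings. Testing only probes above background on 4 or more arrays gave 1325 (686 higher, 639 lower), and on 2 or more of the 8 arrays 1349 (703 higher, 646 lower), with fewer probes tested. A trended, robust estimate of the spread gave 1048 (558 higher, 490 lower). Leaving out 1 treatment at every passage gave 244 without Activin (144 higher, 100 lower), 136 without SB (80 higher, 56 lower), 193 without DMSO (117 higher, 76 lower) and 243 without KSR (138 higher, 105 lower), with 12 arrays fitted. Leaving out 1 of the 8 arrays gave 540 (288 higher, 252 lower) without the Activin array of P24, and 243 (144 higher, 99 lower) without its KSR array, and 265 to 417 without any of the other 6. With the filter on 4 arrays P24 minus P21 gave 1380, P24 minus P20 1752, P23 minus P21 1008 and P23 minus P20 327. Chosen after seeing the data, leaving out the dim KSR array of P21 gave 835 and all P21 arrays 890. No named gene that was called changed sign under any alternative run, but most alternatives reuse the same treatment pairs and could hardly reverse a sign. The calls themselves varied more, being lost in 0 of 24 alternatives for Vldlr and in 17 of 24 for Anxa2.

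The treatment is the block that pairs P24 with P23, and without this pairing 554 probes passed. P24 stood apart on the first component with cyclic loess (15.1% of variance) and with the authors' values (17.5%) too. The stress list kept 10 to 12 of its 13 calls with 1 array left out, losing only Asns, Gpt2 or Sesn3. The medians of the core pluripotency (-0.046 to 0.115), cholesterol synthesis (-0.014 to 0.063) and Nodal target lists (-0.055 to 0.172) crossed 0 and have no settled sign. Genes near background have compressed differences, and 1 culture series holds 1 example of each passage.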

Other observations

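KSR and DMSO cultures differ only by the vehicle, and their difference within a passage was read over the probes called between P24 and P23. In P21, 71.2% of the 313 probes lower in P24 were higher under KSR than under DMSO, and 67.4% of the 390 higher probes were lower under KSR, beside 50.6% and 49.3% of all probes. In P20 these shares were 64.9% and 59.7%, in P23 59.4% and 44.9%, and in P24 45.7% and 46.7%. Each passage has 1 array of either treatment, the KSR array of P21 was the dimmest, and the cause was not tested.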
